A study of Mus musculus with 12 samples.

Results

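The 39 genes described here mark macrophages and monocytes or a switch between them, and they were matched by gene symbol among the 54446 genes counted in RNA from CD11b+ cells of mouse tumors. They fall into 10 macrophage surface, scavenger and efferocytosis genes, the 3 subunit genes of complement C1q, 7 genes of lipid-associated macrophages, 6 genes of resident-type or alternatively activated macrophages, 6 genes of Ly6C-high monocytes, 3 genes of Ly6C-low monocytes, and 4 genes of adhesion, matrix and activin signaling. Of the 39, 36 had enough reads to be tested in each comparison, and the 3 that did not were Cd163, Folr2 and Retnla.

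Classical, Ly6C-high monocytes leave the blood for inflamed tissue and tumors, where they lose Ly6c2 and Plac8 and, as macrophages, gain F4/80 (Adgre1), C1q, Apoe and Mrc1. Non-classical, Ly6C-low monocytes patrol the vessel wall and carry Ace and Treml4. Macrophages take up apoptotic cells through the receptors Mertk and Axl, which bind such cells through the bridging protein Gas6. YTHDF2 is a cytoplasmic reader of N6-methyladenosine (m6A), a mark that lies in the sequence context DRACH, with GGACT as a frequent form, and transcripts that it binds are generally degraded faster.

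The cells came from MC38 tumors, a colon carcinoma line of C57BL/6 origin, grown in WT mice, here Ythdf2 fl/fl animals without Cre on a C57BL/6J background. Tumors were left untreated (Ctrl) or received local radiation of 20 Gy (IR), and CD11b+ cells were collected 3 days later. Each condition had 3 pools of cells from several mice, and each pool gave 2 libraries, an Input of its RNA and a YTHDF2 immunoprecipitate (IP), 12 in all. All animals carried the floxed Ythdf2 allele in an undeleted state, and no library from a control antibody was used here. The study's methods call the pools technical replicates, so p-values measure the spread between pools, which may be less than that between animals.

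Reads assigned to genes numbered 34445784 to 40008607 in Ctrl Input, 37940948 to 42382532 in IR Input, 28919897 to 33882664 in Ctrl IP and 27852948 to 30244160 in IR IP. The share of reads on no gene was 26.9 to 27.0%, 24.6 to 24.8%, 41.8 to 42.7% and 49.4 to 54.1% in these groups, so it was highest in IR IP. Itgam, which encodes CD11b, was at 951 to 963 CPM (reads scaled to a common library total, with TMM factors) in Ctrl Input and 1621 to 1667 CPM in IR Input. The neutrophil markers also moved with IR: the summed level of 10 such genes was 6321 to 6988 CPM in Ctrl and 8327 to 8993 CPM in IR, 7 of the 10 rose and Mmp9 fell, and none of them was at 0. Dendritic cell markers (9 genes) summed to 693 to 715 CPM in Ctrl and 777 to 802 CPM in IR. Of 8 tested, 3 rose and 3 fell, where 21.0% and 23.9% of all genes did, and Siglech changed most (-1.85 ± 0.11). B cell markers (4 genes) summed to 18.8 to 20.3 CPM in Ctrl and 24.1 to 26.6 CPM in IR. Of these, 1 was higher and 2 were lower. Fibroblast markers (7 genes) summed to 7.14 to 7.52 CPM in Ctrl and 8.10 to 12.4 CPM in IR. Endothelial markers (5 genes) summed to 28.3 to 29.7 CPM in Ctrl and 23.1 to 24.9 CPM in IR. Markers of T or NK cells summed to no more than 5.42 CPM and those of erythroid cells to no more than 1.61 CPM in any Input, with Krt19, an epithelial keratin, at 0 in all of them. Among the epithelial markers, Cdh1 was nevertheless at 116 to 124 CPM in Ctrl and 82.5 to 86.3 CPM in IR. In bulk RNA of this kind, fewer cells of a type and less RNA per cell cannot be told apart. The part of the neutrophil, dendritic, B cell, fibroblast and endothelial changes in the results that follow was not tested.

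Macrophage and monocyte genes were present at very different levels. Per kb of exon, Lyz2, the lysozyme gene of myeloid cells, was highest of the 39 in Ctrl Input at 1897 CPM per kb, followed by the monocyte chitinase-like gene Chil3 at 698 CPM per kb and the fatty acid binding protein gene Fabp5 at 132 CPM per kb. Ly6c2, which encodes the Ly6C antigen, stood at 71.5 CPM per kb, while Adgre1 was at 9.79, C1qb at 9.98, C1qc at 2.12 and C1qa at 1.54 CPM per kb. Retnla had 0 counts in all 12 libraries, where 3 counts would be 0.0708 to 0.108 CPM. The hemoglobin scavenger receptor gene Cd163 and the folate receptor gene Folr2, marks of resident macrophages, had 0 to 7 and 0 to 2 counts per Input library.

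IR changed the Input level of most of these genes by small amounts. Of the 36 tested, 18 were higher in IR, against 21.0% of all 16914 genes tested, and 10 were lower (27.8%, against 23.9%), by the edgeR quasi-likelihood test with p adjusted over all genes after Benjamini and Hochberg. A fit of all 12 libraries together, which share 1 estimate of the spread, called 11 higher and 7 lower. The 10 calls that it ended were those of the 3 C1q genes, Cd36, Cd68, Trem2, Treml4, Adgre1, Apoe and Ear2. The median log2 change of the 36 was 0.13, beside 0.01 for all genes. Of the 28 that changed, 22 changed by less than 1.5-fold, and the 2 that moved by 2-fold or more were Gas6, which rose 6.94-fold, and Vcam1, which fell 2.56-fold.

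**Figure D1:**
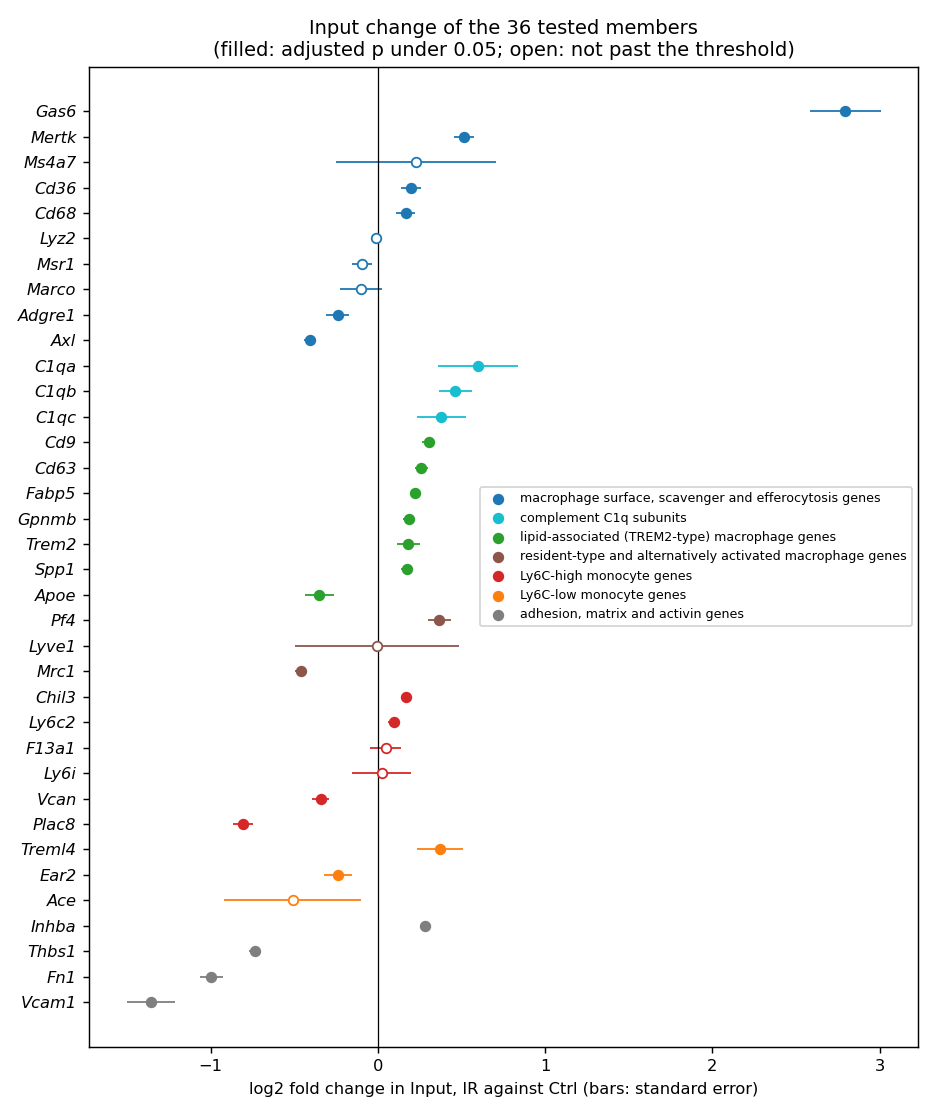
Log2 fold change of each tested gene in Input, IR against Ctrl, with its standard error (bars), ordered by gene group; filled points passed an adjusted p of 0.05 and open points did not. Gas6 lies far to the right at 2.80, the 3 C1q genes lie together between 0.38 and 0.60, and Thbs1, Fn1 and Vcam1 lie to the left at -0.74, -0.997 and -1.36.

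The macrophage surface and efferocytosis genes did not move as a block. In this group 4 of 10 rose (Gas6, Mertk, Cd36 and Cd68), 2 fell (Axl and Adgre1) and 4 did not pass the test. Gas6, the bridging ligand of the TAM receptors, was at 0.728, 0.700 and 1.06 CPM in the 3 Ctrl pools and at 6.39, 5.98 and 5.10 CPM in the 3 IR pools. Every IR pool was thus far above every Ctrl pool, with a log2 change of 2.80 ± 0.21 (SE, edgeR adjusted p = 2.28e-11) that rests on 25 to 43 reads per Ctrl library and 215 to 259 per IR library. Gas6 shares exon sequence with Tmem255b on the opposite strand.

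The receptors for Gas6 went in opposite directions. Mertk, the receptor tyrosine kinase of macrophage efferocytosis, was at 35.5, 35.2 and 37.8 CPM in Ctrl and 46.7, 54.2 and 54.0 CPM in IR, a rise of 0.51 ± 0.06 on the log2 scale (edgeR adjusted p = 6.56e-08). Axl, the related receptor, was at 182, 195 and 192 CPM in Ctrl and 145, 143 and 140 CPM in IR, and fell by 0.41 ± 0.04 (edgeR adjusted p = 5.40e-10). The groups did not overlap for either receptor.

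Adgre1, which encodes F4/80, was at 29.8, 33.3 and 32.0 CPM in Ctrl and 26.1, 28.8 and 25.7 CPM in IR. All IR pools were below all Ctrl pools, and the log2 change was -0.24 ± 0.07 (edgeR adjusted p = 0.00465). In the fit of all 12 libraries it was -0.16 and did not pass (edgeR adjusted p = 0.498). The scavenger receptor gene Cd36 rose by 0.20 ± 0.06 and the lysosomal gene Cd68 by 0.17 ± 0.06, and neither call held in the fit of all 12 libraries (edgeR adjusted p = 0.167 and 0.0745). The Cd68 call was lost without Ctrl pool 1 or IR pool 3, with log2 changes of 0.08 and 0.16. Lyz2 differed by -0.01 ± 0.02, with 2458 to 2531 CPM in Ctrl and 2455 to 2501 CPM in IR, and the scavenger receptor genes Msr1 (-0.10 ± 0.06) and Marco (-0.10 ± 0.13) and the tetraspanning membrane gene Ms4a7 (0.23 ± 0.48) did not pass the test either.

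All 3 C1q genes were higher in IR. C1q opens the classical complement pathway, and in mice the 3 chains are made from neighboring genes on chromosome 4 (GRCm38, minus strand, C1qb at 136880129-136886187, C1qc at 136889804-136893065 and C1qa at 136895917-136898803). C1qa was at 1.78, 1.74 and 1.29 CPM in Ctrl and 2.37, 2.70 and 2.18 CPM in IR. C1qb was at 12.3, 10.5 and 9.80 CPM in Ctrl and 15.8, 14.6 and 14.4 CPM in IR. C1qc was at 3.90, 4.07 and 4.33 CPM in Ctrl and 4.96, 5.72 and 5.36 CPM in IR.

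For each C1q gene, every IR pool lay above every Ctrl pool. The log2 changes were 0.60 ± 0.24 for C1qa, 0.46 ± 0.10 for C1qb and 0.38 ± 0.15 for C1qc, with edgeR adjusted p of 0.0448, 0.00039 and 0.0377. The calls of the 2 less abundant chains were close to the threshold. C1qa lost its call without Ctrl pool 2 or 3 or without any IR pool, with log2 changes of 0.45 to 0.67 and edgeR adjusted p of 0.0523 to 0.178. C1qc lost its call without any Ctrl pool, IR pool 2 or IR pool 3, with log2 changes of 0.33 to 0.42 and edgeR adjusted p of 0.0573 to 0.119. C1qb was called in each such fit. In the fit of all 12 libraries together the log2 changes were 0.67, 0.54 and 0.46 and no C1q gene passed, with edgeR adjusted p of 0.327, 0.0536 and 0.382.

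Because the C1q genes moved together, the 250 bases before the start of C1qb and C1qc as RefSeq places it are shown (GRCm38.p6, both on the minus strand, C1qb at chr4:136886201-136886450 and C1qc at chr4:136892915-136893164). The GENCODE start of C1qc given above lies inside this window, so the annotations disagree there and part of the C1qc window is transcribed by GENCODE's account. Capitals mark GAGGAA, the core of many PU.1 sites, and TGCTGA, found in sites of the MAF family, searched on both strands, so that TTCCTC is GAGGAA on the other strand.
C1qb: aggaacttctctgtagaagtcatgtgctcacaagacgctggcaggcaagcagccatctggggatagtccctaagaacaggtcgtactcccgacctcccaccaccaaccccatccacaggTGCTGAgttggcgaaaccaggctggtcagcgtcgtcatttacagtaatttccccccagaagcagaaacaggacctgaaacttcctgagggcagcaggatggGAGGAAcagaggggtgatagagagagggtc
C1qc: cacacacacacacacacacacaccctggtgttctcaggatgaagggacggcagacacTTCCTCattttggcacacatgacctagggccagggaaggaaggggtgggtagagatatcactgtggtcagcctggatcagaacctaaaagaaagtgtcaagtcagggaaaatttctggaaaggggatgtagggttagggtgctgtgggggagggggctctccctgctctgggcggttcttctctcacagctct
GAGGAA occurred in 21 of the 39 promoter windows of 30 member genes (53.8%), beside 28.3% of all 32851 windows. TGCTGA occurred in 8 of the 39 (20.5%), beside 19.5% of all. Windows and not genes were counted, so a gene with several starts enters more than once, and no share per gene was computed. A match is a description of the letters and not a bound site. Adgre1, Msr1, C1qa, Fabp5, Lyve1, Ly6i, Fn1, Thbs1 and Vcam1 have no promoter entry.

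Genes of lipid-associated macrophages, a state marked by TREM2 that handles lipid and debris, mostly rose by small amounts. In IR Input 6 of 7 were higher and Apoe was lower. The tetraspanin genes Cd9 and Cd63 rose by 0.30 ± 0.04 and 0.26 ± 0.04 on the log2 scale, Fabp5 by 0.22 ± 0.03, the lysosomal glycoprotein gene Gpnmb by 0.19 ± 0.04 and the osteopontin gene Spp1 by 0.17 ± 0.04. Trem2 itself, the lipid-sensing receptor gene, was at 26.3, 23.1 and 24.9 CPM in Ctrl and 27.1, 29.4 and 27.7 CPM in IR, a log2 change of 0.18 ± 0.07 (edgeR adjusted p = 0.0363). The Trem2 call was lost without Ctrl pool 2 or 3 or IR pool 2 or 3, with log2 changes of 0.13 to 0.19.

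Apoe, which encodes the main lipid carrier protein of macrophages, went the other way. It was at 29.6, 24.1 and 32.5 CPM in Ctrl and 21.5, 24.2 and 22.0 CPM in IR. Here Ctrl pool 2 and IR pool 2 overlapped, and the log2 change was -0.35 ± 0.09 (edgeR adjusted p = 0.00144). The call was lost in the fit of all 12 libraries, with a log2 change of -0.27 (edgeR adjusted p = 0.212). Spp1 shares exon sequence with Gm42793 on the same strand, so that reads of the pair may be split.

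Resident-type genes were near the floor or moved in different directions. Mrc1, the mannose receptor gene of alternatively activated macrophages, was at 127, 125 and 123 CPM in Ctrl and 91.7, 91.4 and 89.9 CPM in IR. The groups stood apart, and the log2 change was -0.46 ± 0.04 (edgeR adjusted p = 1.03e-10). Pf4, a platelet and macrophage chemokine gene, rose by 0.37 ± 0.07 (edgeR adjusted p = 0.000105). The hyaluronan receptor gene Lyve1 was at 0.322 to 0.670 CPM in Ctrl and 0.296 to 0.635 CPM in IR, and its log2 change of 0.00 ± 0.49 did not pass the test. At these read numbers small changes of Lyve1, and falls of Cd163, Folr2 or Retnla, were not detectable.

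**Figure D2:**
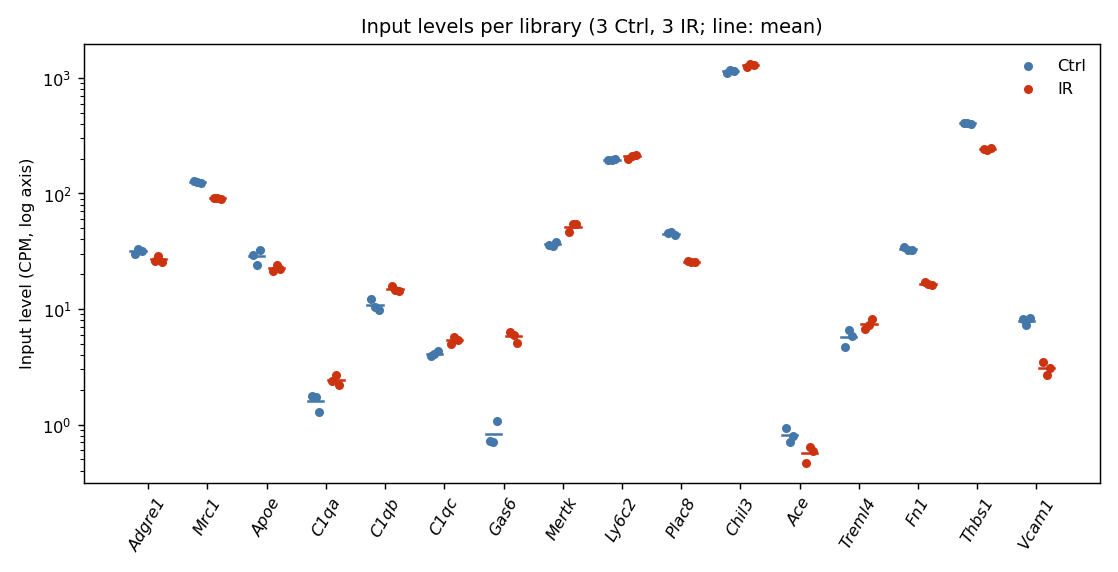
Input level in CPM on a log axis for 16 of the genes, with 3 Ctrl pools (blue) and 3 IR pools (red) as points and the mean as a line. Chil3 lies highest, at 1109.8 to 1321 CPM, and C1qa and Ace lie below 3 CPM, Gas6 shows the widest gap between conditions, and the Apoe pools overlap.

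Ly6C-high monocyte genes also split. Of 6, 2 rose (Chil3 and Ly6c2), 2 fell (Plac8 and Vcan) and 2 did not pass the test. Ly6c2 was at 193, 197 and 198 CPM in Ctrl and 199, 212 and 216 CPM in IR, a log2 change of 0.09 ± 0.04 (edgeR adjusted p = 0.0329). That call was lost without any Ctrl pool or IR pool 2 or 3, with log2 changes of 0.07 to 0.10 and edgeR adjusted p of 0.0719 to 0.186. Ly6c2 and Ly6i lie in a cluster of near-identical genes on chromosome 15, where reads of related copies can be split, so their levels are uncertain.

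Chil3, which encodes the secreted lectin Ym1, was at 1109.8, 1169 and 1139.7 CPM in Ctrl and 1237, 1321 and 1288 CPM in IR, a log2 change of 0.17 ± 0.03 (edgeR adjusted p = 1.96e-05). Plac8, a mark of classical monocytes, was at 45.1, 46.1 and 43.4 CPM in Ctrl and 26.1, 25.5 and 25.3 CPM in IR. Its log2 change was -0.81 ± 0.06 (edgeR adjusted p = 8.02e-12), the largest fall in this group. Vcan, which encodes the matrix proteoglycan versican, fell by 0.34 ± 0.05 on the log2 scale. The transglutaminase gene F13a1 (0.05 ± 0.09) and Ly6i (0.02 ± 0.18) did not pass the test.

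Among the Ly6C-low monocyte genes 1 rose, 1 fell and 1 did not pass the test. Treml4 was at 4.69, 6.56 and 5.82 CPM in Ctrl and 6.71, 7.28 and 8.16 CPM in IR, with no overlap and a log2 change of 0.37 ± 0.14 (edgeR adjusted p = 0.0294). Ace, which encodes angiotensin-converting enzyme, was at 0.932, 0.700 and 0.792 CPM in Ctrl and 0.469, 0.635 and 0.593 CPM in IR. Every IR pool of Ace was lower, but 19 to 32 reads per library stood behind each value and the log2 change of -0.51 ± 0.41 did not pass the test. Ear2, an eosinophil-type ribonuclease gene with near-identical relatives, fell by 0.24 ± 0.08. The Treml4 call was lost without Ctrl pool 1 or 3 or IR pool 2 or 3 (log2 changes of 0.25 to 0.39), and the Ear2 call without Ctrl pool 1 or IR pool 3 (-0.16 and -0.18).

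The adhesion and matrix genes held the largest falls. Vcam1, which encodes an adhesion receptor for the integrin VLA-4, was at 8.16, 7.31 and 8.29 CPM in Ctrl and 3.48, 2.70 and 3.08 CPM in IR, and its log2 change was -1.36 ± 0.15 (edgeR adjusted p = 1.56e-08). Fn1, the fibronectin gene, was at 34.3, 32.5 and 32.3 CPM in Ctrl and 16.97, 16.4 and 16.2 CPM in IR (log2 change -0.997 ± 0.069, edgeR adjusted p = 4.45e-12). Thbs1, the thrombospondin 1 gene, was at 406, 405 and 401 CPM in Ctrl and 243, 237 and 247 CPM in IR (log2 change -0.74 ± 0.03, edgeR adjusted p = 1.52e-16).

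No Ctrl and IR pool overlapped for these 3 genes. Inhba, which encodes the activin A subunit, rose instead, from 199, 197 and 198 CPM to 244, 242 and 238 CPM (log2 change 0.28 ± 0.03, edgeR adjusted p = 4.79e-08). Exons of Vcam1, Fn1, Thbs1, Ace, Cd9, F13a1 and Folr2 overlap other genes on the opposite strand (Gm43109, Apol7d, Gm29233, Gm11651, Gm26728, Gm30489 and Gm10602), and the strand setting of the read counting is not given in the sources used here.

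Read against the Ly6C-high monocyte genes of the set, C1q rose. The mean log2 level of the 3 C1q genes minus that of the 6 Ly6C-high genes was -3.75, -3.74 and -3.84 in the Ctrl pools and -3.18, -3.10 and -3.21 in the IR pools. The ratio of C1qa to Ly6c2 CPM was 0.00651 to 0.00921 in Ctrl and 0.0101 to 0.0127 in IR. Both measures were higher in each IR pool than in each Ctrl pool, and they are given without a test. The falls of Plac8 and Vcan enter the first measure, and the summed neutrophil level rose in the same pools. Neither measure holds the macrophage genes Adgre1, Apoe and Mrc1, whose Input log2 changes were -0.24, -0.35 and -0.46. The fit of all 12 libraries ended the calls of the C1q genes, Adgre1 and Apoe and kept that of Mrc1.

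Other macrophage and monocyte genes, which are not among the 39, moved in both directions as well. Of 32 further macrophage genes (28 tested), 14 rose and 5 fell, with a median log2 change of 0.19. Over all genes tested, 21.0% rose and 23.9% fell. The largest rises were in the scavenger receptor gene Stab1 (0.83 ± 0.11), the transcription factor gene Maf (0.73 ± 0.08) and the prostaglandin synthase gene Hpgds (0.54 ± 0.09), and the largest falls in the sialoadhesin gene Siglec1 (-0.90 ± 0.34), the cholesterol transporter gene Abca1 (-0.83 ± 0.13) and the Fc receptor gene Fcgr1 (-0.44 ± 0.06). Siglec1 had few reads, with 62, 96 and 76 in the Ctrl Inputs and 55, 15 and 65 in the IR Inputs. The dependence of its fall on single libraries was not tested. Csf1r, the receptor gene on which macrophages depend, fell by 0.12 ± 0.03.

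Of 28 further monocyte genes (27 tested), 11 rose and 5 fell, beside 21.0% and 23.9% of all genes, with a median log2 change of 0.07. S100a4 (0.55 ± 0.06), Ifitm3 (0.36 ± 0.05) and Eno3 (0.31 ± 0.07) rose most, and the integrin gene Itga4 (-0.997 ± 0.051), Ms4a6c (-0.63 ± 0.09) and Adgre4 (-0.39 ± 0.14) fell most. Itga4 encodes a chain of VLA-4, the integrin that binds the products of Vcam1 and Fn1. Ccr2, the chemokine receptor gene of classical monocytes, rose by 0.14 ± 0.04.

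YTHDF2 binding was read as the log2 ratio of IP to Input, a measure relative to the other genes of the same libraries. Most of the 36 tested genes of the set stood below their Input. In Ctrl, 3 of the 36 tested were higher in IP (8.33%, against 34.1% of all 17416 genes tested) and 24 were lower (66.7%, against 34.6%). In IR, 2 of the 36 were higher (5.56%, against 32.1% of 18650) and 23 were lower (63.9%, against 30.4%). Scaling by library size alone moved the median of all genes by -0.18 in Ctrl and 0.15 in IR and added C1qa, Trem2 and F13a1 to the lower genes in Ctrl. In IR it ended the calls of F13a1 and Fn1. The median log2 change of the 36 was -1.07 in Ctrl and -0.89 in IR, beside 0.02 and 0.10 for all genes. The further macrophage and monocyte genes outside the set were more mixed. Of 28 such macrophage genes tested, 8 were higher and 15 lower in Ctrl, and 7 were higher and 13 lower in IR. Of 27 such monocyte genes, 9 were higher and 13 lower in Ctrl, and 6 were higher and 15 lower in IR.

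The genes above Input were Inhba, Mertk and, in Ctrl, Apoe. The log2 ratio of Inhba was 1.95, 1.97 and 1.96 in the Ctrl pools and 1.13, 1.21 and 1.22 in the IR pools, and the fitted log2 changes were 2.04 ± 0.04 and 1.24 ± 0.04 (edgeR adjusted p = 6.32e-18 and 6.92e-10). The log2 ratio of Mertk was 1.22, 1.38 and 1.17 in Ctrl and 0.67, 0.80 and 0.60 in IR, with fitted changes of 1.33 ± 0.07 and 0.75 ± 0.10 (edgeR adjusted p = 7.48e-12 and 6.07e-05). Both genes stood above 0 in all 6 pools. Apoe was above Input in Ctrl (0.55 ± 0.10, edgeR adjusted p = 0.000152) and was not called in IR (-0.18 ± 0.16). Values per pool share the scale of all 12 libraries, and the fitted changes lie above them by a median of 0.08 in Ctrl and 0.06 in IR.

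Several Ly6C-high monocyte genes of the set were among its lowest in IP. All 5 Ly6C-high genes that passed the test in Ctrl were below Input, and the median of the 6 was -2.72 in Ctrl and -2.78 in IR. The log2 ratio of Ly6c2 was -3.05, -3.12 and -2.99 in Ctrl and -3.01, -3.13 and -3.05 in IR, so that its pools overlapped between conditions. The ratio of Chil3 was -2.81, -2.80 and -2.89 in Ctrl and -3.01, -2.96 and -2.93 in IR. Plac8 was at -2.68, -2.72 and -2.85 in Ctrl and -3.06, -2.68 and -2.54 in IR. Ly6i, with 2 to 22 reads per IP library, ranged from -5.37 to -1.96 in Ctrl and from -3.18 to -2.66 in IR.

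Vcan and F13a1 lay nearest to Input among these genes, and Vcan was at -0.69, -0.47 and -0.36 in Ctrl and -0.13, -0.02 and 0.04 in IR. F13a1 was called lower in IR alone (-0.54 ± 0.20, edgeR adjusted p = 0.0341). That call was lost without any IR Input pool or without IR IP pool 2 or 3, with log2 changes of -0.58 to -0.28. The Ly6C-low genes gave 2 lower in Ctrl (Ear2 and Treml4) and 1 lower in IR (Ear2). Treml4 was at -0.70 ± 0.23 in Ctrl, a call that was lost without Ctrl Input pool 2 or Ctrl IP pool 3 (-0.61 and -0.48). Ace, with 5 to 44 reads per IP library, was not called in either condition.

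The lowest fitted ratio of the 36 belonged to Lyz2, at -3.32, -3.25 and -3.38 in Ctrl and -3.18, -3.22 and -3.19 in IR (fitted changes -3.24 ± 0.04 and -3.14 ± 0.03). Adgre1 was at -1.96, -2.27 and -2.56 in Ctrl and -1.73, -1.72 and -2.03 in IR. Among the lipid-associated genes Cd9, Fabp5, Spp1, Cd63 and Gpnmb were below Input in both conditions, from -1.07 (Gpnmb) to -2.57 (Cd9) in Ctrl, while Trem2 did not pass the test in either (-0.22 ± 0.10 and -0.19 ± 0.17). In IR, Cd9 was at -3.28, -2.98 and -3.22, beside -2.59, -2.59 and -2.77 in Ctrl. Fitted changes of Cd68 were -0.91 and -1.45, those of Axl -1.44 and -0.84, of Mrc1 -1.25 and -0.77 and of Thbs1 -1.50 and -0.65 in Ctrl and IR, all called. Vcam1 was below Input in Ctrl (-1.16 ± 0.22), and its value in IR (-1.02 ± 0.48) did not pass the test. Cd36 was at -2.13 and -2.20, Pf4 at -2.46 and -2.57, and Msr1 at -0.71 and -0.75 in Ctrl and IR, and all 3 were called in both.

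The 3 C1q genes had a median of -0.98 in Ctrl and -0.94 in IR. C1qc was below Input in Ctrl (-1.06 ± 0.27) and IR (-1.74 ± 0.39), and C1qb in IR alone (-0.94 ± 0.23, with -0.11 ± 0.14 in Ctrl). C1qa, with 16 to 68 reads per IP library, was at -1.66, -0.93 and -0.49 in the Ctrl pools and -0.90, -1.72 and 0.00 in the IR pools. This spread was wide, and C1qa did not pass the test in either condition. Gas6 (0.81 ± 0.48 and -0.54 ± 0.41), Marco, Ms4a7 and Lyve1 were not called in either condition. Folr2 had 72, 3 and 41 reads in the IR IP pools and 0 to 6 in the Ctrl IP pools, and Cd163 had 30, 0 and 13 against 0 to 3, so that the IR IP pools differed widely from each other for these untested genes.

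**Figure D3:**
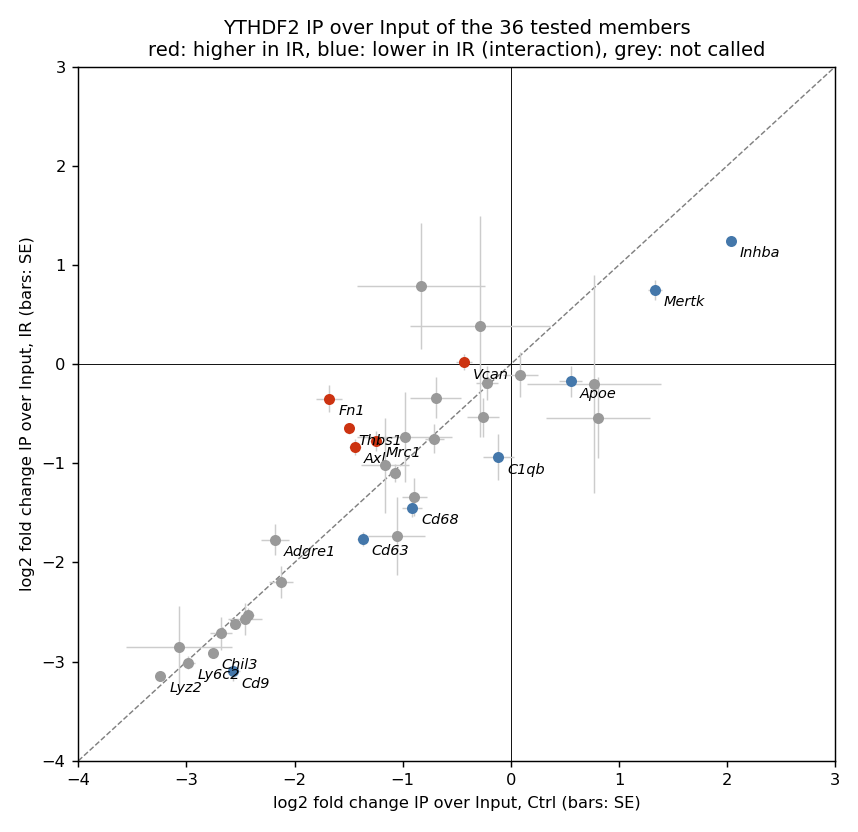
Fitted log2 change of IP over Input in Ctrl (x axis) and in IR (y axis) for the 36 tested genes, with standard errors as bars and the line of equal values dashed. Inhba and Mertk lie at the upper right and below the line, Lyz2, Ly6c2 and Chil3 at the lower left on or near it, and Fn1, Thbs1, Axl, Mrc1 and Vcan above it; the 2 axes use different libraries.

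GGACT was not denser in the genes with the higher ratios. Shown are the 25 bases around a GGACT (capitals) on the GENCODE M21 coding transcript (GRCm38, written in the sense of the transcript). Inhba and Mertk had the 2 highest ratios in Ctrl, and Lyz2 and Ly6c2 were among the 3 lowest. The ratio of Fn1 changed most among the genes that passed the interaction test. Each is the GGACT nearest the last coding base among those whose 25 bases lie in 1 exon. Counted from that base, they lay at -1171 (Inhba), -526 (Mertk), -116 (Ly6c2), 104 (Lyz2) and 460 (Fn1) bases, with negative values before it.
Inhba: gctcagccccGGACTgcccgtcctg
Mertk: agcagcctgaGGACTgcttggatga
Lyz2: ctaagtcacaGGACTtcagcagaaa
Ly6c2: atcagggagaGGACTtcctgttgca
Fn1: ccctcccacaGGACTcactttgtcc
The Inhba site is at chr13:16017384-16017408 (plus strand, coding part of exon 4 of 5) and the Mertk site at chr2:128794551-128794575 (plus strand, coding part of exon 18 of 19). The Lyz2 site is at chr10:117278008-117278032 (minus strand, after the coding part in exon 4 of 4), the Ly6c2 site at chr15:75108650-75108674 (minus strand, coding part of exon 4 of 4) and the Fn1 site at chr1:71585743-71585767 (minus strand, after the coding part in exon 46 of 46).

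Inhba, with the highest ratio, held 2 GGACT in 6390 bases (0.313 per kb), and Ly6c2, with one of the lowest, held 3 in 822 bases (3.65 per kb). Over the 36 genes the Spearman correlation of GGACT per kb with the Ctrl log2 ratio was -0.47, and over 13042 coding genes it was 0.09. For the number of GGACT per transcript it was -0.11 over the 36 and 0.25 over all coding genes in Ctrl. In IR, that of the number was 0.20 over the 36 and 0.31 over all coding genes. These are correlations across genes, which share libraries and base composition and are not independent replicates. GGACT letters say nothing of whether a base was methylated.

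Transcript length ran with the ratio. The coding transcripts of the 36 had a median length of 1482 bases, beside 2916 bases for all coding genes. The Spearman correlation of length with the log2 ratio was 0.25 over the 36 and 0.25 over the 13042 coding genes in Ctrl, and 0.51 and 0.36 over 13806 in IR. In Ctrl, the 18 genes of the set below 1500 bases had a median log2 ratio of -1.21, beside -0.71 for the 2205 coding genes of that length. The 13 genes of 3000 bases or more had a median of -1.16, beside 0.09 for 6278 coding genes of that length. The 5 genes in between went the other way, with a median of 0.09 beside -0.17 for 4559 coding genes in Ctrl and -0.20 beside -0.31 for 4778 in IR. In IR the medians of the outer classes were -1.75 beside -0.85 for the short and -0.65 beside 0.21 for the long transcripts.

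**Figure D4:**
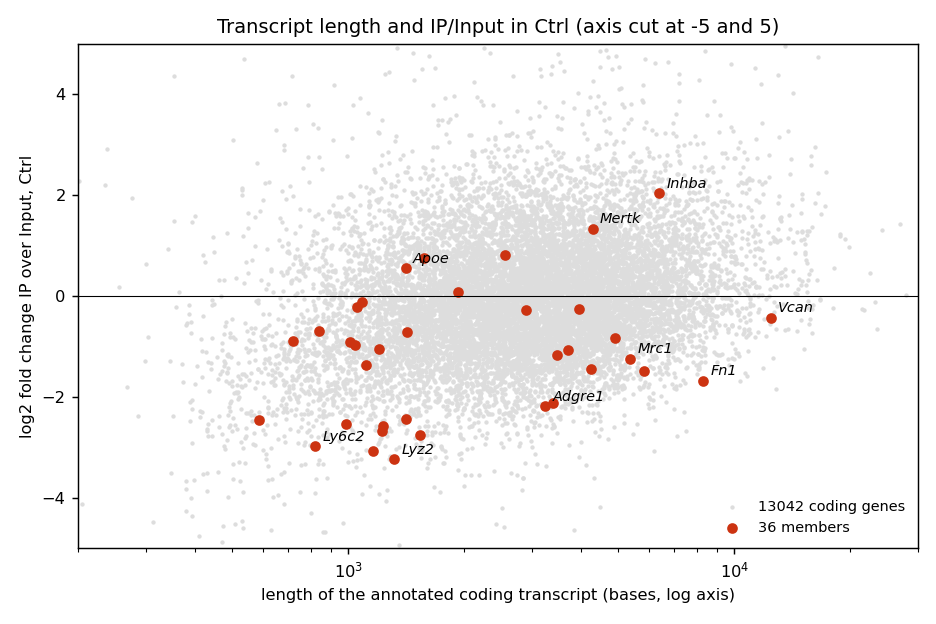
Length of the coding transcript in bases (log axis) against the fitted log2 change of IP over Input in Ctrl for 13042 coding genes (grey) and the 36 genes of the set (red); 78 coding genes lie outside the plotted range. Most red points below 1500 bases and from 3000 bases on lie below 0, Gas6, Ms4a7 and Marco lie above it in between, Inhba and Mertk stand above 1, and Lyz2 is lowest.

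IR changed the IP over Input ratio of 12 of the 36 genes. By the interaction term of edgeR's quasi-likelihood fit, 5 had a higher ratio in IR (13.9%, against 6.28% of all 20720 genes tested) and 7 had a lower ratio (19.4%, against 13.9%). The genes that gained were Fn1, Thbs1, Axl, Mrc1 and Vcan, and the genes that lost were C1qb, Inhba, Apoe, Mertk, Cd68, Cd9 and Cd63. The median of all genes was -0.08 under the normalization used here and 0.23 when scaled by library size alone, a shift of 0.31. Under that scaling 10 genes were higher and 1 was lower, so the split between gains and losses depends on the scaling.

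Among the 12, Fn1 changed most, with a log2 ratio of -1.57, -1.72 and -2.02 in Ctrl and -0.55, -0.34 and -0.32 in IR (interaction 1.36 ± 0.18, edgeR adjusted p = 1.86e-05). Thbs1 was at -1.55, -1.60 and -1.57 in Ctrl and -0.74, -0.58 and -0.79 in IR (interaction 0.87 ± 0.06, edgeR adjusted p = 6.90e-09). Axl was at -1.51, -1.59 and -1.45 in Ctrl and -0.77, -1.06 and -0.86 in IR (interaction 0.62 ± 0.10, edgeR adjusted p = 9.58e-05). All 3 remained below Input in every IR pool while standing apart from Ctrl. The lower value of Fn1 in IR IP than in Input (-0.35 ± 0.13, edgeR adjusted p = 0.0419) was lost whichever of the 6 libraries was left out, with log2 changes of -0.37 to -0.21.

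Mrc1 was at -1.28, -1.37 and -1.31 in Ctrl and -0.78, -0.66 and -1.07 in IR (interaction 0.50 ± 0.12, edgeR adjusted p = 0.0037). Vcan, given above, gained 0.47 ± 0.11 (edgeR adjusted p = 0.00384). The 5 genes that gained were called in each of 19 other fits.

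Among the losses, Inhba was clearest, at -0.77 ± 0.05 (edgeR adjusted p = 9.23e-10), and its loss was called in each of the 19 other fits. Apoe was at 0.43, 0.60 and 0.42 in Ctrl and -0.37, 0.01 and -0.39 in IR (interaction -0.71 ± 0.20, edgeR adjusted p = 0.0153). Apoe thus lay above Input in 3 of 3 Ctrl pools and below it in 2 of 3 IR pools. Without Ctrl Input pool 2, Ctrl IP pool 3 or IR IP pool 3 its call was lost, with log2 changes of -0.59 to -0.55.

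C1qb was at -0.41, -0.09 and -0.06 in Ctrl and -1.46, -1.21 and -0.45 in IR (interaction -0.80 ± 0.27, edgeR adjusted p = 0.0444). Its call was lost when any library except IR IP pool 3 was left out, with log2 changes of -0.89 to -0.62. Mertk lost 0.56 ± 0.12, Cd68 0.52 ± 0.14, Cd9 0.50 ± 0.12 and Cd63 0.37 ± 0.09 on the log2 scale, with edgeR adjusted p of 0.00228, 0.00914, 0.00505 and 0.00661. The Cd68 call was lost without Ctrl IP pool 3 (-0.37) and the Cd63 call without Ctrl IP pool 1 or 2 (-0.29 and -0.28). For all 12 genes the Ctrl and IR pools did not overlap. The genes were picked by a test on these same libraries, so this is not further support. Pools also stood apart for Gas6, Lyz2, Chil3 and Ace, which the interaction test did not call. How many of all genes had pools that stood apart was not counted.

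**Figure D5:**
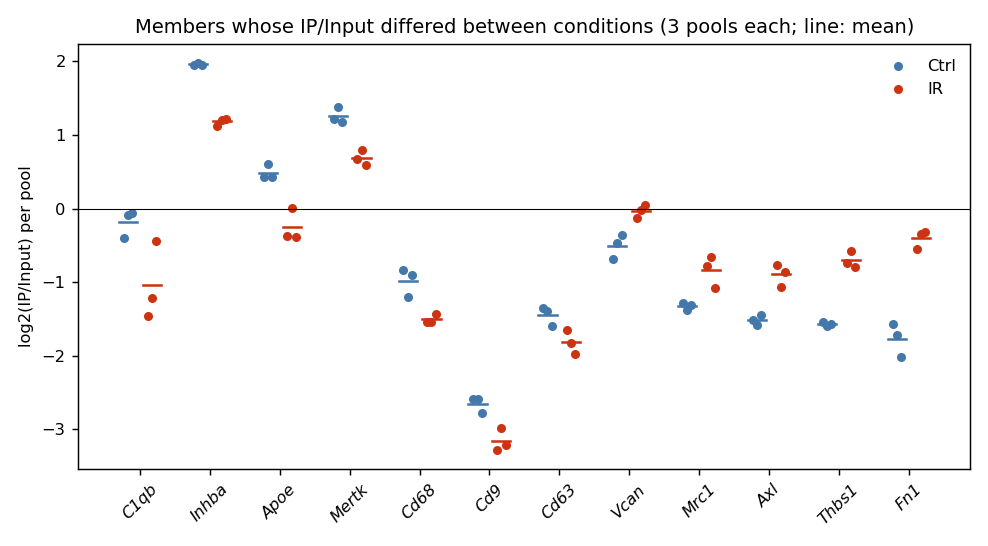
Log2 ratio of IP to Input in each of 3 Ctrl pools (blue) and 3 IR pools (red) for the 12 genes whose ratio differed between conditions, with the mean as a line. Inhba, Apoe and Mertk start above 0 in Ctrl and fall, and Fn1, Thbs1, Axl and Mrc1 rise but stay below 0.

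The changed ratios ran against the Input. All 5 genes that gained IP over Input fell in Input, and 6 of the 7 that lost it rose in Input, the exception being Apoe. The Input is subtracted in the ratio, so opposite directions are partly built in for any set of genes. This count is therefore not independent support, and the same share over all called genes was not computed. In the IP libraries themselves, 4 of the 36 genes were higher in IR (11.1%, against 6.12% of all 19255 genes tested) and 2 were lower (5.56%, against 9.85%), and the other 30 did not pass the test. The 4 were Axl, Lyz2, Fabp5 and Thbs1, with log2 changes of 0.20 to 0.31, and the 2 were Apoe and Inhba. Scaled by library size alone, which moved the median of all genes by 0.21, 10 were higher and 2 lower.

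For Thbs1, IP levels were 136, 132 and 135 CPM in Ctrl and 152, 165 and 149 CPM in IR, so its IP rose slightly (0.22 ± 0.07, edgeR adjusted p = 0.0363) while its Input fell. For Fn1, IP levels were 11.3, 9.71 and 7.86 CPM in Ctrl and 12.04, 13.6 and 13.6 CPM in IR, a log2 change of 0.45 ± 0.20 that did not pass the test. Mertk IP levels overlapped, with 81.1, 90.6 and 84.7 CPM in Ctrl and 77.7, 98.7 and 85.3 CPM in IR.

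Inhba was at 755, 766 and 766 CPM in Ctrl IP and 557, 582 and 580.3 CPM in IR IP, and fell by 0.40 ± 0.04 on the log2 scale (edgeR adjusted p = 4.91e-06) while its Input rose. Apoe was at 39.2, 36.3 and 43.4 CPM in Ctrl IP and 17.3, 25.4 and 17.6 CPM in IR IP, and fell by 0.97 ± 0.16 (edgeR adjusted p = 0.000401) beside a fall in Input. Both genes thus had less transcript in the IP after IR, with no overlap of pools. The calls of Axl, Lyz2, Fabp5 and Thbs1 in IP were each lost in 2 to 5 of the 6 fits that left out 1 IP library, with log2 changes of 0.17 to 0.35.

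Among the monocyte genes of the set only Vcan had a changed ratio. Of the 27 further monocyte genes tested, 1 had a higher ratio in IR and 10 had a lower one, with a median log2 change of -0.45. The shares over all genes tested were 6.28% higher and 13.9% lower. None of Ly6c2, Ly6i, Plac8, Chil3 and F13a1 passed the interaction test, with changes of -0.01 ± 0.08, 0.24 ± 0.69, -0.01 ± 0.17, -0.13 ± 0.06 and -0.26 ± 0.25, and none passed the test in IP. Scaled by library size alone, Ly6c2 was called with a change of 0.30. Treml4 (0.38 ± 0.32), Ace (1.65 ± 0.90) and Ear2 (-0.43 ± 0.22) did not pass it either. For Plac8, the fall in Input of 0.81 was accompanied by a log2 change in IP of -0.73 ± 0.28 that did not pass the test.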

How the data were processed

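The authors trimmed reads with Trimmomatic (0.39, per the labels), aligned them to mm10 and counted reads per gene with HTSeq, and the deposited files hold these whole-number counts for 12 libraries, 3 per group. Reads on no gene were left out. IDs were named from GENCODE M21, which held 97.8% of them with the same version and 99.9% without it. Genes with at least 10 counts in 3 libraries of a comparison were fitted with edgeR 4.0.16 (R 4.3.3) after TMM scaling, as the quasi-likelihood test, with a threshold of 0.05 on Benjamini-Hochberg adjusted p. IP over Input was compared between conditions as an interaction. Log2 ratios per pool used a prior count of 2. DESeq2 1.42.0, other scalings and filters, a replicate block and leave-one-out fits were alternatives. The fits were also run on simulated counts with the same spread for all genes and groups. Replicates of the IR IP differed more from each other than those of the Inputs, so that run does not show how the fits behave there. Input and IP of a pool share a number; deviations of such pairs correlated by -0.03 to 0.01. All 39 genes were accounted for, with values per pool for defining genes and the largest changes. The genes, groups and marker lists were chosen with earlier results of these data known. Labels and methods name different antibody suppliers and RNA inputs. Standard errors (±) come from the edgeR fits and include the spread between pools.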

Additional observations from a re-analysis of the deposited data

Results flagged for a closer look

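The change in IP over Input between conditions, tested as an interaction, differed from 0 for 12 of the 36 genes. The log2 difference, IR minus Ctrl, was 1.36 for Fn1, 0.87 for Thbs1, 0.62 for Axl, 0.50 for Mrc1 and 0.47 for Vcan. It was -0.80 for C1qb, -0.77 for Inhba, -0.71 for Apoe, -0.56 for Mertk, -0.52 for Cd68, -0.50 for Cd9 and -0.37 for Cd63. Over all genes 6.28% were called higher and 13.9% lower. The summed levels of neutrophil, dendritic, B cell, fibroblast and endothelial markers also differed between conditions, as did the share of reads on no gene. Their part in these values was not tested.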

How the results depend on the processing

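Of 2687 values of single genes under another setting, 2519 kept their side of the threshold, 109 lost a call, 56 gained 1 and 3 reversed. A reversal was counted only where the main fit or the other fit called the gene. Changes of sign in uncalled values are therefore among the 2519, as for the Msr1 interaction, which ranged from -0.13 to 0.29. A call was kept in every alternative for 17 of 28 genes in Input, 26 of 27 for IP against Input in Ctrl, 23 of 25 in IR, 6 of 12 for the interaction and 2 of 6 in IP. With all 12 libraries in one fit, the count higher in IR Input went from 18 to 11, and in IP from 4 to 8 higher and from 2 to 5 lower. Requiring at least a 2-fold change left 1 higher and 1 lower in Input, 1 higher in IP than Input in IR, 1 higher and 0 lower for the interaction, and 0 higher and 0 lower in IP. Scaled by library size only, the interaction gave 10 higher and 1 lower in place of 5 and 7, and IP gave 10 higher in place of 4. Gpnmb, Fabp5 and Ly6c2 then reversed to 0.31, 0.26 and 0.30, and none of them had been called. With no filter on low counts, 1 gene was higher in IP. The causes of these shifts were not tested.

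Leaving out 1 library at a time gave 12 to 17 higher and 9 to 10 lower in Input. It gave 3 to 4 higher and 24 to 25 lower in IP than Input in Ctrl, and 2 higher and 21 to 23 lower in IR. For the interaction it gave 5 to 7 higher and 4 to 7 lower, the lowest without Ctrl IP pool 3. In IP it gave 0 to 5 higher and 2 to 3 lower, with 0 higher without Ctrl IP pool 1 or 3. With the replicate block the counts were 18 and 10 in Input, 3 and 24 in Ctrl, 2 and 22 in IR, 5 and 7 for the interaction and 5 and 2 in IP. In Input the number only names a pool, since Ctrl and IR pools are different mice. The block ended the call of Fn1 in IR and added that of Gas6 in IP, and it changed no other call. Few reads limit what C1qa, Gas6, Ace, Ms4a7 and Lyve1 can show.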
